A study of Mus musculus with 6 samples.

Results

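Zic1, Zic2, Zic4 and Zic5 were followed in mouse ependymal cell cultures with and without the gene Edf1. They are 4 of the 22851 gene symbols in the deposited count table, and all 4 had enough counts to enter the test across 14243 genes. The members were chosen by family name, with the knockout and wild-type values of the Zic genes already known: Zic4 was among the largest rises of the series. Their differences between the genotypes are therefore given as a description, with no p-value.

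Zic genes encode transcription factors with a block of C2H2 zinc fingers that is related to the fingers of the Gli and Glis proteins. They act early in the neural plate and later in the dorsal neural tube, the cerebellum, the meninges and the midline of the forebrain, and they are known to bind and modulate Gli factors, the effectors of hedgehog signalling. Most of them lie in the genome as head-to-head pairs, with Zic1 beside Zic4 and Zic2 beside Zic5.

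The cells were radial glia, the progenitors that line the ventricles, taken from newborn C57BL/6J mice aged P0-P3. They were grown in serum and then kept without serum for 6 days, which drives them to become multiciliated ependymal cells. One group came from wild-type (WT) mice and the other from mice in which Edf1, a small coactivator that also binds collided ribosomes, was knocked out with Cas9. Each genotype has 3 libraries, described as biological replicates. The labels do not say whether each came from its own litter or mouse, so the spread between libraries may be partly technical. In these bulk cultures, a larger share of Zic-expressing cells and more Zic RNA per cell cannot be told apart.

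The libraries held 13071766 to 28087006 counts. Edf1 itself fell from 82.9 ± 2.85 to 11.3 ± 1.72 (CPM, read counts scaled for library size; mean ± SD, n = 3 each), the direction the genotype labels give. The cultures expressed ependymal genes in both genotypes: Foxj1, the master regulator of motile cilia, stood at 788 ± 43.4 CPM in WT libraries and at 523 ± 10.3 CPM in knockout ones.

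The positions of the genes were taken from GENCODE M21, on the GRCm38 build that the submitters' processing notes name. Zic1 (ENSMUSG00000032368.14) lies on the minus strand at chr9:91358058-91365810. Zic4 (ENSMUSG00000036972.14) lies on the plus strand at chr9:91362413-91389348. Their bodies overlap by 3398 bases, but their merged exons share only 60 bases, at chr9:91362459-91362518. Those bases are coding in Zic1, where they make up 1.05% of its exon bases, and belong to a non-coding first exon of 1 of the 12 annotated Zic4 transcripts. Zic5 (ENSMUSG00000041703.7) lies on the minus strand at chr14:122456795-122465677, and Zic2 (ENSMUSG00000061524.8) on the plus strand at chr14:122475435-122479852. Zic5 and Zic2 do not overlap, and 9757 bases separate them.

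**Figure D1:**
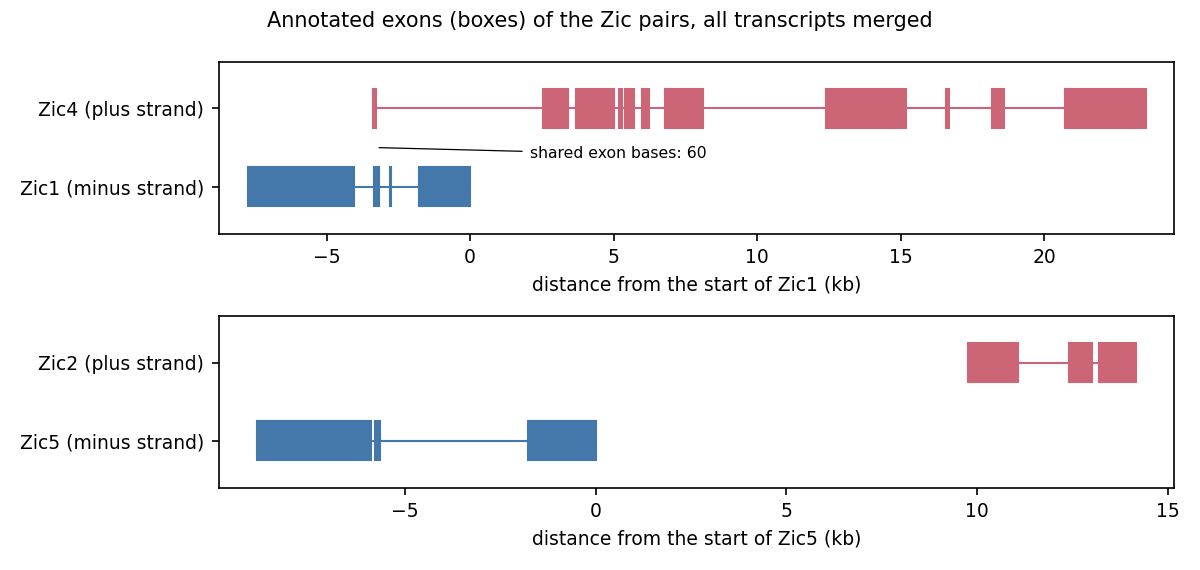
Merged annotated exons (boxes) of the 2 Zic pairs, with the distance from the start of the minus-strand gene in kb on the x axis and 1 row per gene. Zic1 and Zic4 share 60 exon bases at the first exon of 1 Zic4 transcript, and Zic5 and Zic2 share none.

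The bases before the RefSeq starts of Zic1, Zic4 and Zic5 are shown as a description of the loci. Any link between these bases and the Zic values was not tested. The starts of Zic1 and Zic4 in RefSeq are 3204 bases apart. Sequences are the 250 bases before each RefSeq start on GRCm38.p6, written 5′ to 3′ on the strand of the gene, with the letters CCAAT (the CCAAT box) and GGGCGG (the GC box) in capitals on either strand. RefSeq windows were matched for 3 of the 4 members: Zic1 at chr9:91365769-91366018, Zic4 at chr9:91368722-91368971 and Zic5 at chr14:122465659-122465908.
Zic1: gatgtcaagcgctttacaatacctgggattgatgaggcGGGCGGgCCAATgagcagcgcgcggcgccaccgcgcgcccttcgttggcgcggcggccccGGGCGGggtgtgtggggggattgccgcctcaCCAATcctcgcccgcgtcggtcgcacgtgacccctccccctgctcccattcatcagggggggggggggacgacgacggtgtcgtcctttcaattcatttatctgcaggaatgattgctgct
Zic4: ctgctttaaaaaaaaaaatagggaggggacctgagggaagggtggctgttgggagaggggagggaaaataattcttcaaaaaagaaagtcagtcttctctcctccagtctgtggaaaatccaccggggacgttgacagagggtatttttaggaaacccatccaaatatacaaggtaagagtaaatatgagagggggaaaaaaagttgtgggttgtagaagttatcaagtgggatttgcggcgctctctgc
Zic5: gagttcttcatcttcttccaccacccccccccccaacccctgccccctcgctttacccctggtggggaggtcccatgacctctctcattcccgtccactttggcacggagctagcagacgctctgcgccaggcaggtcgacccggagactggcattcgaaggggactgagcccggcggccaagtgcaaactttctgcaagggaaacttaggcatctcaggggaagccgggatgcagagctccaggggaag

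The 3 windows differ in composition. By GENCODE, the Zic4 window lies inside a merged Zic4 exon, which runs from 2.557 to 3.416 kb past the GENCODE start of Zic1. Its values therefore describe bases before a RefSeq start that are annotated as exon in other Zic4 transcripts. The Zic1 window has 66.0% G and C and a CpG ratio (observed over expected) of 0.995, higher than 94.0% of 32851 windows of the same length. The Zic4 window has 44.4% G and C and a CpG ratio of 0.376, close to the median ratio of 0.373. The Zic5 window has 62.4% G and C and a CpG ratio of 0.458. The Zic1 window holds 2 CCAAT boxes, at 205 and 121 bases before the start, and 2 GC boxes, at 212 and 152 bases before it. It also holds the E-box letters CACGTG at 98 bases before the start. Across all windows, 33.8% hold CCAAT, 32.7% hold GGGCGG and 6.02% hold CACGTG. None of these letters occurs in the Zic4 or Zic5 window. The TATA box (TATAAA, in 12.4% of windows), the cyclic AMP response element (TGACGTCA, 1.55%), a Gli site (GACCACCCA, 0.225%) and a Zic site (CCTGCTG, 8.44%) occur in none of the 3. Both strands were searched for each. A match or its absence describes these letters only.

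All 4 Zic genes had higher values in the knockout, and no knockout library overlapped a WT library for any of them. The pair on chromosome 9 differed most, 4.35-fold for Zic4 and 2.28-fold for Zic1, and the pair on chromosome 14 less, 1.48-fold for Zic5 and 1.26-fold for Zic2. The quasi-likelihood test of edgeR called all 4 higher (threshold 0.05 after adjustment), where 12.7% of tested genes were called higher and 26.9% in either direction. Groups without overlap and with the knockout higher were found for 21.3% of tested genes. Since the members were proposed from this contrast, nothing is read from these counts.

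Zic4 encodes the least studied protein of the pair and is deleted together with Zic1 in Dandy-Walker malformation of the cerebellum. It had 116, 62 and 88 counts in WT replicates 1, 2 and 3 and 343, 331 and 584 counts in knockout replicates 1, 2 and 3. On the CPM scale the WT values were 4.37, 4.82 and 4.76, and the knockout values 21.1, 18.4 and 20.7. The WT libraries lay close together, and the lowest knockout library was well above the highest WT library. The log2 fold change was 2.12 (SE 0.11), higher than that of 99.8% of tested genes.

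Zic1 is known for holding granule neuron precursors of the cerebellum in a dividing state. WT libraries 1 to 3 held 375, 167 and 262 Zic1 counts, and knockout libraries 1 to 3 held 497, 526 and 966. As CPM, the WT values were 14.1, 13.0 and 14.2, and the knockout values 30.6, 29.3 and 34.2. The order of the libraries differed from that of Zic4 within both genotypes. The log2 fold change was 1.19 (SE 0.087), higher than that of 99.1% of tested genes.

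Zic5, which acts in neural crest and dorsal neural tube formation, had fewer counts than the other 3 in each knockout library, while in WT Zic4 had the fewest. WT libraries 1 to 3 held 206, 65 and 142 Zic5 counts, and knockout libraries held 164, 182 and 305. As CPM, the WT values were 7.76, 5.05 and 7.68, and the knockout values 10.1, 10.1 and 10.8. WT replicate 2, the library with the fewest counts in total, was the low one. The log2 fold change was 0.57 (SE 0.15), and it was 0.43 (SE 0.12) without that library. The call was lost without knockout replicate 3, where the value was 0.54 (SE 0.18).

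Zic2, which is required for forebrain midline formation and for routing ipsilateral retinal axons, had the most reads. WT libraries 1 to 3 held 841, 447 and 495 Zic2 counts, and knockout libraries held 631, 691 and 1125. As CPM, the WT values were 31.7, 34.7 and 26.8, and the knockout values 38.8, 38.5 and 39.8. Here WT replicate 2 was the highest WT library and replicate 3 the lowest, so the gap between the groups was narrow. The log2 fold change was 0.34 (SE 0.088), higher than that of 87.8% of tested genes. It was 0.24 (SE 0.079) without WT replicate 3 and 0.41 (SE 0.074) without WT replicate 2. As for Zic5, the call was lost without knockout replicate 3, at 0.32 (SE 0.11).

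**Figure D2:**
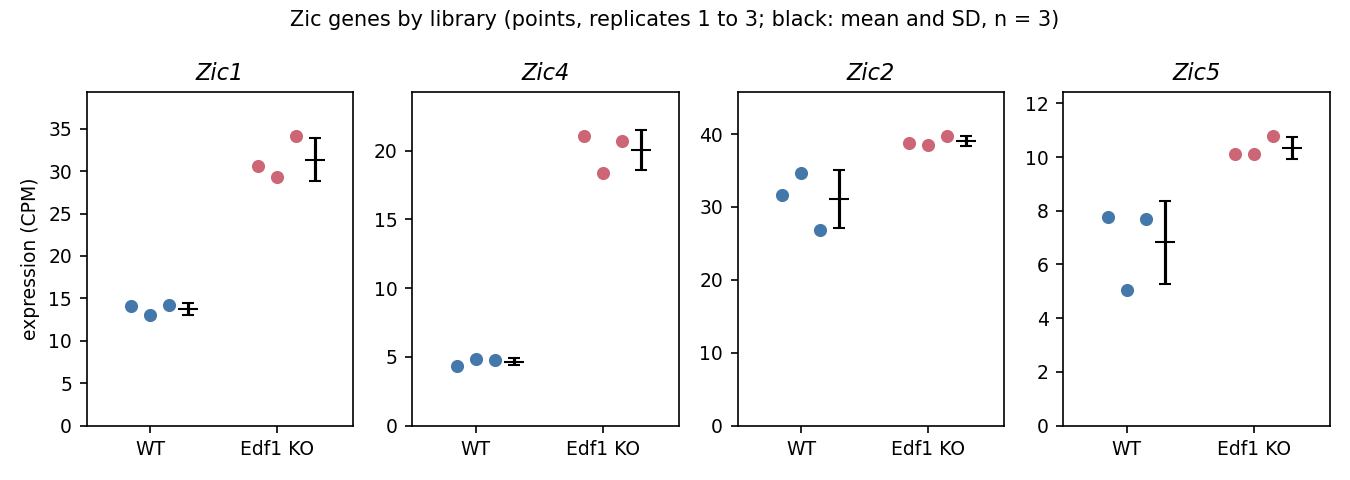
Expression in CPM (y axis, linear, from 0) of each Zic gene in the 3 WT (blue) and 3 Edf1 knockout (red) libraries, with the mean and SD in black. Zic4 lies at 4.37 to 4.82 in WT and 18.4 to 21.1 in the knockout, whereas for Zic2 the WT libraries reach 34.7 and the knockout libraries begin at 38.5.

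**Figure D3:**
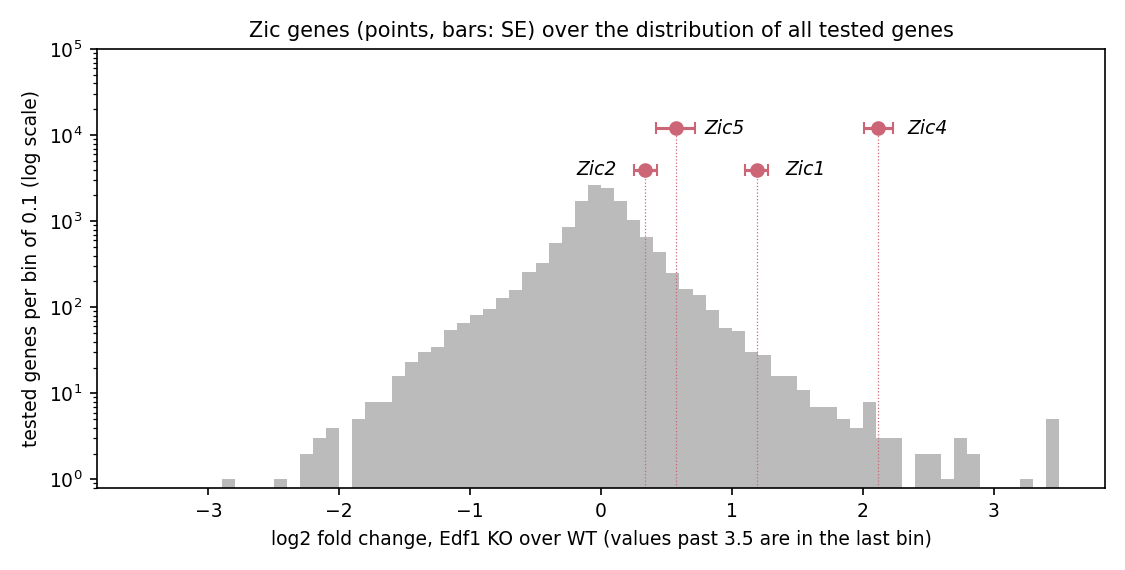
Log2 fold changes of the Zic genes (red points with SE, height arbitrary) over a histogram of all 14243 tested genes (grey, log scale). Zic4 at 2.12 and Zic1 at 1.19 lie in the right tail, and Zic5 at 0.57 and Zic2 at 0.34 lie nearer the centre.

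The spread between libraries was set against that expected from counting alone. The coefficient of variation of Zic5 in WT was 22.6%, against 9.54% from counting, and that of Zic2 was 13.0% against 4.26%. Zic1 and Zic4 varied by 4.91% and 5.22% in WT, below the 6.45% and 11% that counting gives. In the knockout the values were 8.11% for Zic1, 7.10% for Zic4, 3.85% for Zic5 and 1.79% for Zic2, against counting values of 4.06%, 5.05%, 7.04% and 3.62%. With 3 libraries a group, each of these estimates is itself imprecise.

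Levels were compared between the genes per kb of exon. On the scale of CPM per kb of merged exon, the order in WT was Zic2 at 10.8 ± 1.4, Zic1 at 2.42 ± 0.119, Zic5 at 1.4 ± 0.315 and Zic4 at 0.45 ± 0.0235 (SD, n = 3). In the knockout the levels were 13.6 ± 0.243, 5.51 ± 0.447, 2.11 ± 0.0813 and 1.94 ± 0.138 in the same order. Neighbours in this order did not overlap between their libraries, although Zic5 and Zic4 came close in the knockout, at 2.06 to 2.21 and 1.78 to 2.04. The order depends on the length used, since the merged exons of Zic4 hold 10335 bases and its longest coding transcript 3891. With the longest coding transcript, the Zic4 level was 1.19 ± 0.0624 in WT and 5.16 ± 0.366 in the knockout. It then overlapped Zic5 in WT (1.06 to 1.63, with Zic4 at 1.12 to 1.24) and Zic1 in the knockout (5.23 to 6.10, with Zic4 at 4.74 to 5.42).

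The make-up of the family's RNA differed between the genotypes. The sum over the 4 genes was 15 ± 1.08 CPM per kb in WT and 23.1 ± 0.851 in the knockout, on merged exons. The share of Zic2 in this sum was 71.5% ± 4.45 in WT and 58.7% ± 1.12 in the knockout. The share of Zic1 was 16.1% ± 1.82 and 23.8% ± 1.05, and that of Zic4 was 3.0% ± 0.306 and 8.40% ± 0.464. The share of Zic5 was 9.38% ± 2.54 and 9.15% ± 0.144, with overlapping libraries. With the longest coding transcript, the Zic4 share was 6.74% ± 0.684 in WT and 17.8% ± 0.885 in the knockout, where that of Zic5 was 7.5% ± 0.160. Zic2 was the main Zic transcript in all 6 libraries under each of the 3 lengths tried.

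The pairs were then compared by their count ratios, which do not depend on library scaling. The ratio of Zic4 to Zic1 counts was 0.309, 0.371 and 0.336 for the WT libraries, against 0.690, 0.629 and 0.605 for the knockout libraries. On the log2 scale the mean ratio was -1.57 ± 0.13 in WT and -0.64 ± 0.098 in the knockout, a difference of 0.92, so Zic4 counts moved further than those of its neighbour in these libraries. Leaving out each library in turn gave differences of 0.86 to 0.99. The ratio of Zic5 to Zic2 counts was 0.245, 0.145 and 0.287 for the WT libraries, against 0.260, 0.263 and 0.271 for the knockout libraries. These groups overlapped. The difference of 0.29 on the log2 scale rested on WT replicate 2 and was -0.0017 without it. Across the pairs, the ratio of Zic1 to Zic2 was 0.446, 0.374 and 0.529 for the WT libraries and 0.788, 0.761 and 0.859 for the knockout libraries, without overlap.

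**Figure D4:**
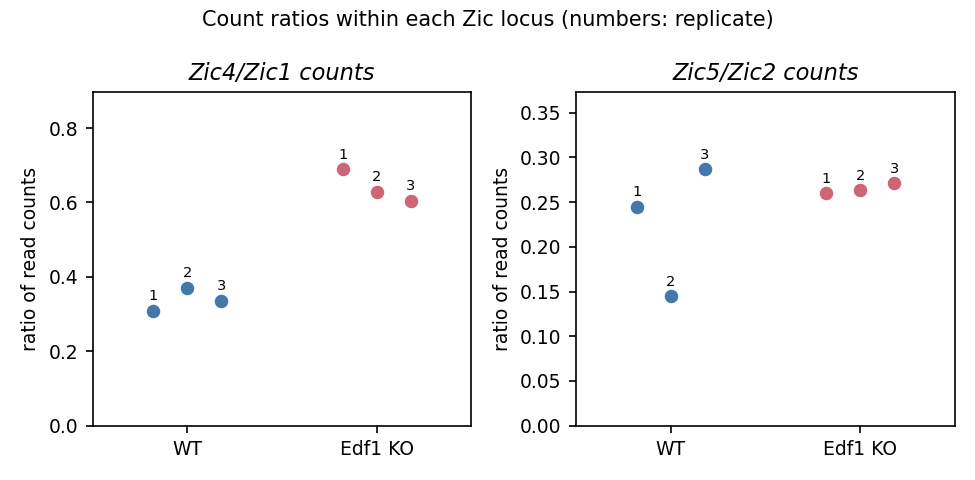
Ratios of read counts within each Zic pair (y axis, linear, from 0) for each library, numbered by replicate, in WT (blue) and Edf1 knockout (red). The Zic4/Zic1 ratio lies at 0.309 to 0.371 in WT and 0.605 to 0.690 in the knockout, whereas the Zic5/Zic2 ratio overlaps between the genotypes.

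The sources used here do not say if reads were counted by strand, so reads from the bases that Zic1 and Zic4 share could be given to either gene or to none. At even coverage those 60 bases would hold 1.8 to 10.2 Zic1 counts per library. That is 2.84% to 3.41% of the Zic4 count in WT and 1.53% to 1.74% in the knockout. The length of the reads is not given in the sources used here, and reads that only touch the shared bases would add to this. Zic4 also shares 468 exon bases with Gm37477, a tentative gene model on the opposite strand that was not analysed here. Of the 31-base words in their transcripts, 1.92% for Zic1, 0.316% for Zic2, 4.68% for Zic4 and 10.87% for Zic5 also occur in a transcript of another gene. Zic2 shares 9 of its words with Zic1, and Zic1 and Zic4 share words with each other.

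The values of genes near the loci were mixed, where 12.7% of all tested genes were called higher. The protein-coding genes nearest to Zic1 and Zic4 are at least 803.6 kb away. Plscr5 had 0 counts in all 6 libraries. Plscr1, a phospholipid scramblase gene, rose from 25.2 ± 1.58 to 30.1 ± 0.595 CPM, or by 0.27 on the log2 scale (SE 0.075; edgeR adjusted p-value 0.0196). Plscr2 had 129 ± 6.40 and 142 ± 2.81 CPM and was not called (adjusted p-value 0.0881 by edgeR). On the other side, Tbc1d2b (0.07) and Morf4l1 (-0.025) were not called, and Adamts7, a secreted metalloprotease gene 1150.0 kb away, rose by 0.80 on the log2 scale (SE 0.10, adjusted p-value 0.000104 by edgeR). Beside Zic2 and Zic5, the log2 fold changes of Clybl (0.089), Tm9sf2 (-0.089), Pcca (-0.092) and Ggact (-0.0077) did not pass, with adjusted p-values of 0.183 to 0.948 by edgeR. Clybl and Pcca, mitochondrial enzyme genes, lie 54.6 and 54.5 kb from the pair. The nearer coding models Gm5089 and Gm10837 were not analysed here.

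Genes with the most similar pattern over the 6 libraries were sought by Pearson's r of log2 CPM with each Zic gene. Because most of each pattern is the step between the genotypes, r is a description of these 6 libraries. For Zic4 the nearest were C1ql3 (r = 0.9991), AA467197 (0.9988) and Aplp1 (0.9982). For Zic1 they were Hsp90b1 (0.9977), Ccdc136 (0.9960) and P3h1 (0.9959). For Zic2 they were Osr1 (0.9946), Ube2c (0.9914) and Tsfm (0.9901), and for Zic5 they were Ddx60 (0.9967), Myh10 (0.9966) and Tmem87b (0.9965). Their differences were of unlike size. AA467197 had a log2 fold change of 2.71 and C1ql3, a secreted synaptic organiser gene, one of 0.92, while Hsp90b1, an endoplasmic reticulum chaperone gene, had 0.19. Of 12888 genes compared, 4.09% had an r of at least 0.95 with Zic4, 3.91% with Zic1, 3.56% with Zic5 and 0.636% with Zic2. Among the Zic genes, r was 0.991 for Zic1 with Zic4 and 0.481 for Zic2 with Zic5. After the genotype means were taken out, r was 0.24 for Zic1 with Zic4 and -0.72 for Zic2 with Zic5.

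Gli factors and hedgehog readouts were examined as relatives and partners of the Zic proteins. Of 11 genes in this list, 6 rose, none fell, and the median log2 fold change was 0.40, against 0.0029 over all tested genes. Over all tested genes, 12.7% were called higher. With 1 library left out, 4 to 7 genes of the list were called higher. At an adjusted p-value under 0.01 by edgeR, 4 were. The receptor and readout gene Ptch1 had 5669, 2079 and 4072 counts in the WT libraries, against 5285, 5757 and 8679 in the knockout libraries, or 198 ± 32.1 and 318 ± 9.22 CPM. Gli1, a transcription factor and direct readout of the pathway, rose from 10.3 ± 0.898 to 33.0 ± 1.87 CPM, or by 1.69 on the log2 scale (SE 0.091; edgeR adjusted p-value 1.82e-07). Hhip, which encodes a secreted antagonist, rose by 2.03 (SE 0.38) from a low base of 4 to 6 counts per WT library. Glis2, a zinc finger relative, rose by 0.69 (SE 0.078) and Gli2 by 0.40 (SE 0.11). Gli3 (0.23), Glis1 (0.20), Glis3 (0.23), Sufu (0.23) and Smo (-0.058) were not called. The change in Gli1 thus lay between those of Zic1 and Zic4.

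Genes reported elsewhere as Zic targets gave few values. Only Apoe and Ephb1 of the 7 had enough counts to be tested. Apoe, whose promoter Zic1 and Zic2 are reported to activate, fell from 14300 ± 1240 to 10800 ± 225 CPM, with a log2 difference of -0.41 (SE 0.059; edgeR adjusted p-value 0.000216). Apoe is also expressed by microglia, whose markers fell (below). The part of microglia or of any other cells in the Apoe value was not tested. Ephb1, the guidance receptor gene downstream of Zic2 in retinal neurons, had 5.89 ± 0.47 and 6.51 ± 1.46 CPM and was not called (0.13, SE 0.17). Slc6a4, Atoh1, Drd1, Pax3 and Th had 0 to 6 counts in each library.

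Markers of tissues in which Zic genes are active were counted next. In the list of roof plate and dorsal midline genes, 4 of 11 tested genes rose and 1 fell, with a median of 0.49, beside 12.7% called higher and 14.2% lower over all tested genes. Rspo3, a secreted Wnt activator gene, had 84, 21 and 56 counts in the WT libraries, against 300, 303 and 524 in the knockout libraries. At 2.71 (SE 0.16), its log2 difference was above that of Zic4, and that of Bmp4, a dorsalising signal gene, was 2.04 (SE 0.28). Wnt2b rose by 1.01 (SE 0.31) and Bmp7 by 0.49 (SE 0.13). Without knockout replicate 2, 2 genes of the list were called higher. Msx1 fell by 0.53 (SE 0.16), a call lost on leaving out any 1 library, and Lmx1a (-0.33), Bmp6 (-0.022) and Rfx4 (0.13) were not called. Wnt1, Wnt3a and Gdf7, defining signals of the embryonic roof plate, had 0 to 7 counts per library.

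In the meningeal fibroblast list, 7 of 14 tested genes rose and none fell, with a median of 0.54, where 12.7% of all tested genes were called higher. The list's summed level was 345 to 381 CPM in WT libraries and 511 to 531 CPM in knockout ones, most of it from Ogn. The largest rises were those of Dcn (1.25, SE 0.18), Col3a1 (1.10, SE 0.20) and Col1a1 (1.01, SE 0.13), genes of the collagen matrix. Foxc1, a regulator of meningeal development that is known to be coexpressed with Zic genes, had 4.92 ± 0.283 and 6.46 ± 0.585 CPM (0.40, SE 0.14, adjusted p-value 0.0534 by edgeR). The arachnoid and pial genes Slc6a13, Crabp2 and Aldh1a2 had 0 to 16 counts in each library, and Slc22a6 had 0 in all. The part of such cells in the Zic values was not tested.

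In the choroid plexus list, 3 of 8 tested genes rose and none fell, with a median of 0.14, against a background of 12.7% called higher. The ion channel gene Trpm3 rose by 2.52 (SE 0.11), the transcription factor gene Otx2 by 0.68 (SE 0.074) and the claudin gene Cldn2 by 0.38 (SE 0.12). Ttr, the defining secretory product of this epithelium, measured 32.9 ± 8.85 CPM in WT libraries against 29.9 ± 11.4 CPM in knockout ones (-0.11, SE 0.23). Prlr had 0 to 1 counts in each library of both genotypes. The summed level was 133 to 162 CPM in WT libraries and 177 to 203 CPM in knockout ones. Most of that difference came from Trpm3 (5.97 and 34.6 CPM) and Otx2 (16.5 and 26.5 CPM), while Kcnj13 (-0.40) and Clic6 (-0.27) had lower values and were not called. The part of these cells in the Zic values was not tested either.

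Regional transcription factors were counted by region. In the list for diencephalon, midbrain and hindbrain, 7 of 10 tested genes rose and none fell, with a median of 0.71. The share called higher among all tested genes was 12.7%. Without knockout replicate 3, 4 genes of the list were called higher. Barhl2 rose by 1.80 (SE 0.28), Irx1 by 0.80 (SE 0.17) and Irx3 by 0.75 (SE 0.15). The Hox genes of the list had 0 to 2 counts in each library. In the telencephalon list, 1 of 6 tested genes rose and 2 fell, with a median of 0.15. Among all tested genes, 12.7% were called higher and 14.2% lower. Six3 rose by 0.43 (SE 0.082), while Emx1 (-1.12, SE 0.29) and Lhx2 (-0.28, SE 0.054) fell. Without knockout replicate 1 or 3, 1 gene of this list was called lower, and without WT replicate 2, 3 were called higher.

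The neuronal lineages that are known to express Zic genes were scarce. In the cerebellar granule list, 3 of 11 genes were tested, Reln fell by 0.33 (SE 0.11), and the granule markers Atoh1, Neurod1 and Gabra6 had 0 to 3 counts per library. The call of Reln was lost in 5 of the 6 fits that each left out 1 library. In the list of olfactory bulb interneuron genes, 2 of 7 tested genes fell, Calb2 (-1.16, SE 0.39) and Dlx2 (-0.74, SE 0.20), and none rose, beside 14.2% called lower over all tested genes. Either call can be lost with a library: 0 to 2 genes were called lower when each library was left out.

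Markers of ependymal cells and microglia moved in the direction opposite to the Zic values. All 12 genes of the multiciliated ependymal list fell, with a median of -0.94, where 14.2% of all tested genes were called lower. Their summed level was 2890 to 3070 CPM in WT libraries and 1690 to 1840 CPM in knockout ones. Of 8 microglia genes, 7 fell, with a median of -0.68 and a summed level of 1590 to 1710 CPM in WT libraries and 1020 to 1040 CPM in knockout ones. The neuron list had 2 of 6 tested genes lower, Dcx (-1.61, SE 0.39) and Tubb3 (-0.81, SE 0.16). The oligodendrocyte list had 1 of 6 higher, Cspg4 (0.38, SE 0.11), where 12.7% of all tested genes were called higher. That call was lost on leaving out replicate 3 of either genotype or the first knockout library. Of the endothelial list only Kdr (1.73, SE 0.066) and Flt1 (-1.58, SE 0.13) were tested, and Cldn5 had 0 to 1 counts in each library of both genotypes. The adjusted p-values of the genes said to rise or fall were at most 0.0465 by edgeR's quasi-likelihood test. Whether the make-up of the cultures bears on the Zic values was not tested.

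**Figure D5:**
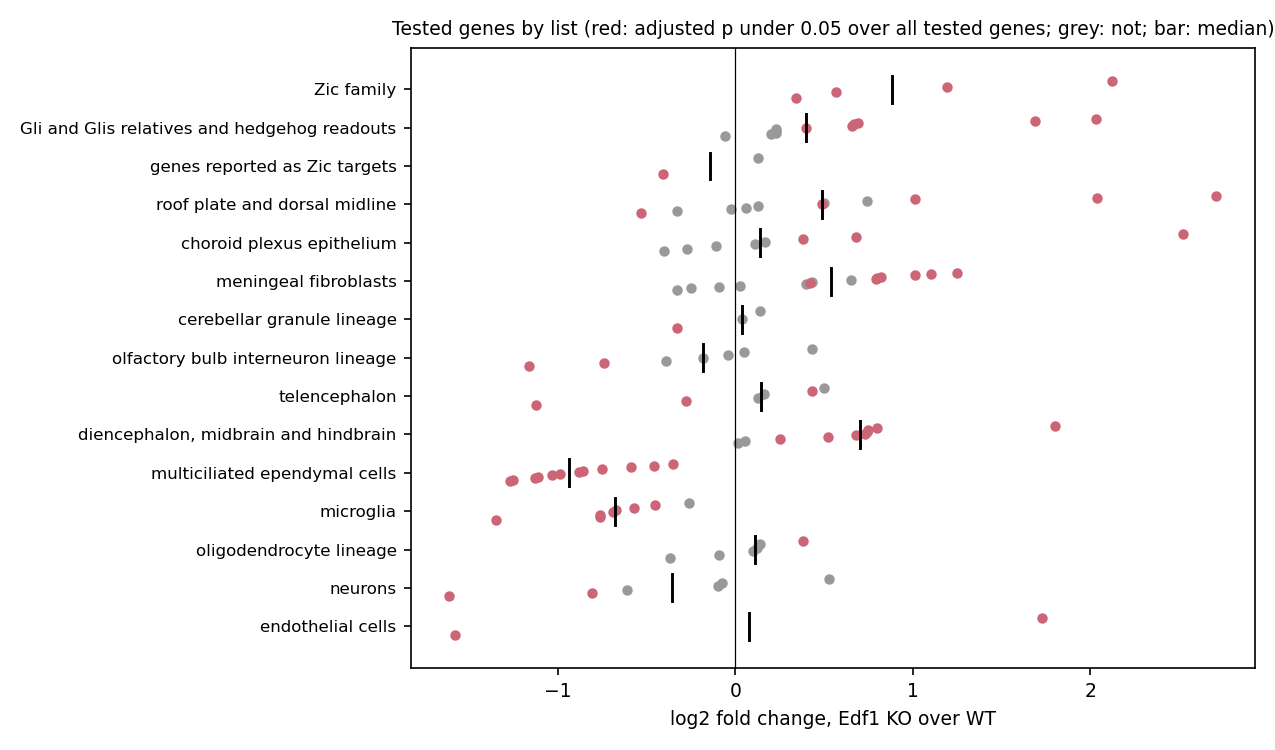
Log2 fold changes of the tested genes in each list (points, red where the adjusted p-value over all tested genes was under 0.05, grey where not) and the list's median (black bar). All Zic genes lie to the right of 0, from 0.34 to 2.12, as do 7 called genes of the diencephalon, midbrain and hindbrain list, while all 12 multiciliated ependymal genes lie to the left.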

How the data were processed

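The authors deposited whole-number read counts for 22851 gene symbols, 1 column per library. FastQC 0.11.2, cutadapt 1.11, HISAT2 2.1.0 and the GRCm38 build are named in the submitters' processing notes. The counting program, annotation and strandedness are not given in the sources used here. No column was left unused (0), and 0 rows named no gene.

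From the deposited counts, filterByExpr of edgeR 4.0.16 (R 4.3.3) kept 14243 genes. Edf1 knockout was compared with WT by edgeR's quasi-likelihood test with TMM scaling, no covariate and Benjamini-Hochberg adjustment over all tested genes, with a threshold of 0.05. CPM used TMM-scaled library sizes, and log2 CPM a prior count of 2. SEs are the log2 fold change over the square root of F. DESeq2 1.42.0 and limma 3.58.1 (voom) were alternatives. Lengths, overlaps and 31-base words came from GENCODE M21. In simulated counts of this comparison over 14243 genes, with 200 changed 2-fold, 93.5% were recovered and 7.43% of calls were false.

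The members and the 14 gene lists were chosen with earlier results of these data known. Named genes are the members, Edf1, the 3 nearest coding genes on each side, genes with overlapping exons, up to 3 called genes per direction and list, and the 3 genes most similar to each member by r among those with a mean log2 CPM of at least 1. Other list genes were named after their values were seen. Some list genes are counted but not reported here by name. Other rows of the table with a Zic symbol were not analysed here.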

Additional observations from a re-analysis of the deposited data

How the results depend on the processing

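Of 56 alternative fits of the Zic genes, 52 kept direction and call, and the other 4 kept direction only. At an adjusted p-value under 0.01, edgeR called 2213 genes in place of 3833, and Zic2 (0.34) and Zic5 (0.57) were no longer called. Leaving out each library in turn gave 0.24 to 0.41 for Zic2 and 0.43 to 0.68 for Zic5, and both calls were lost without knockout replicate 3, with fewer samples. Zic1 stayed at 1.12 to 1.23 and Zic4 at 2.07 to 2.18, called throughout. The members were proposed from this contrast, so kept calls are not read as support. The Zic5 to Zic2 log2 ratio difference ran from -0.0017, without WT replicate 2, to 0.49. The length of the longest coding transcript was added after the data were seen.

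With the replicate number as a block, edgeR called 4065 genes, 3683 of them also called without it. The Zic values were then 1.19 for Zic1, 0.34 for Zic2, 2.13 for Zic4 and 0.59 for Zic5. Same-numbered libraries correlated at 0.0372 to 0.0693 in their deviations, so no pairing was assumed. In the lists, the block left 1 olfactory bulb gene called lower.

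Among 392 list counts under alternatives, 352 stayed within 1.5 times. At 0.01, roof plate genes called higher numbered 2 and lower 0, granule genes lower 0, olfactory bulb genes lower 0, telencephalon genes lower 1, diencephalon, midbrain and hindbrain genes higher 4, and oligodendrocyte genes higher 0. With a mean of 50 counts, 2 roof plate genes were higher and 1 olfactory bulb, 1 telencephalon and 1 neuron gene lower. DESeq2 called 0 roof plate genes lower, limma voom 1 olfactory bulb gene lower, and library size alone left 0 granule genes lower. Without the filter, 2 endothelial genes were higher. Over the fits that left out 1 library, the counts were 2 to 4 roof plate genes higher and 0 lower, 0 to 1 choroid plexus and 0 to 1 granule genes lower, 0 to 2 olfactory bulb genes lower, 1 to 3 telencephalon genes higher and 1 to 2 lower, 4 to 7 diencephalon, midbrain and hindbrain genes higher, and 0 to 1 oligodendrocyte genes higher. The cause was not tested. Zic4 in WT, at 62 to 116 counts, and Zic5, at 65 to 206, are the values most limited by depth.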
